A study of Arabidopsis thaliana with 6 samples.

Results

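WRKY genes encode a plant family of transcription factors that bind W-box elements in DNA and are best known for switching defence, senescence and abiotic stress programmes on or off. Members fall into groups by the number and type of their WRKY domains: group I proteins carry a pair of domains, group II proteins carry a single one and are divided into IIa to IIe, and group III proteins have another type of zinc finger. Ethylene works through EIN2, a membrane protein whose released part reaches the nucleus, and ENAP1 is a nuclear protein that associates with EIN2. The genes described here are the 67 protein-coding genes whose RefSeq symbol is WRKY followed by a number, of 27444 protein-coding genes on chromosomes 1 to 5. They were chosen by symbol, and a member counts as a target of a list when the summit of a deposited peak lies inside the gene or within 1000 bp of it. Whether a member is a target is therefore read from the peaks themselves, and the family was picked with results of these lists known, so the counts below are descriptions without a test.

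The tissue was whole Arabidopsis thaliana Col-0 seedlings, 3 days old and grown in the dark at 24 °C, exposed for 4 hours to air carrying 10 ppm ethylene or to hydrocarbon-free air. The 4 peak lists came from ENAP1-EIN2 reChIP in ethylene, ENAP1-EIN2 reChIP in air, ENAP1 ChIP in ethylene and ENAP1 ChIP in air, and the other 2 samples were inputs. ENAP1 ChIP used an antibody against green fluorescent protein, and reChIP precipitated that material again with an antibody against EIN2. The labels name no tagged line or promoter, and the ethylene samples carry air in their treatment entry, so groups follow the titles and descriptions. Each group was 1 library, so no value has a replicate check and no p-value was computed across genes.

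The reChIP libraries kept 304818 tags in ethylene and 644263 in air after duplicates were removed, against 8811720 and 8400099 tags in the ENAP1 ChIP libraries. Fold enrichment is the authors' value at a peak summit over the local control level, and it is set against other values of the same list only. Pileup is the height of the peak in tags, after the larger library was scaled to the smaller. The ENAP1 ChIP libraries were scaled to their controls, of 4809861 tags in ethylene and 7160364 in air. ENAP1 pileups in ethylene and in air are therefore on unlike scales, and pileup too is set against values of the same list only. Peaks of ethylene reChIP were called over the air reChIP library and not over an input, so they mark gain over air reChIP, and a member without such a peak may still carry EIN2. The air reChIP and air ENAP1 ChIP lists share 1 input as their control.

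ENAP1 ChIP peaks lay at 34 of the 67 WRKY genes in ethylene and at 42 in air. These are 50.7% and 62.7% of the family, where the targets among all protein-coding genes were 36.4% in ethylene and 38.6% in air. With peaks of q of 0.05 or lower, 33 members were targets in ethylene and 42 in air (49.3% and 62.7% of the family, against 34.4% and 37.5% of all genes). The family's share stood above that of all genes in both treatments, and with peaks of −log10 q of at least 5 it was 29.9% against 22.4% in ethylene and 35.8% against 26.9% in air. The median gene length was 2006 bp for WRKY genes and 2078 bp for all genes, so a typical member was about as long as a typical gene. Within the family, ENAP1 targets were longer than the other members, with medians of 2298 against 1821 bp in ethylene and 2139 against 1891 bp in air.

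The reChIP lists gave 28 WRKY targets in ethylene and 21 in air. In ethylene that is 41.8% of the family, against 34% of all genes, and in air 31.3% against 30.5%. The air share is close to that of all genes. With q of 0.05 or lower, 22 members stayed in the ethylene reChIP list (32.8%, against 22.5% of all genes) and 6 in the air reChIP list (8.96%, against 7.07%). No member had a reChIP peak with −log10 q of at least 5 in either treatment, a level that 0.707% of all genes reached in ethylene and 0.222% in air.

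**Figure D1:**
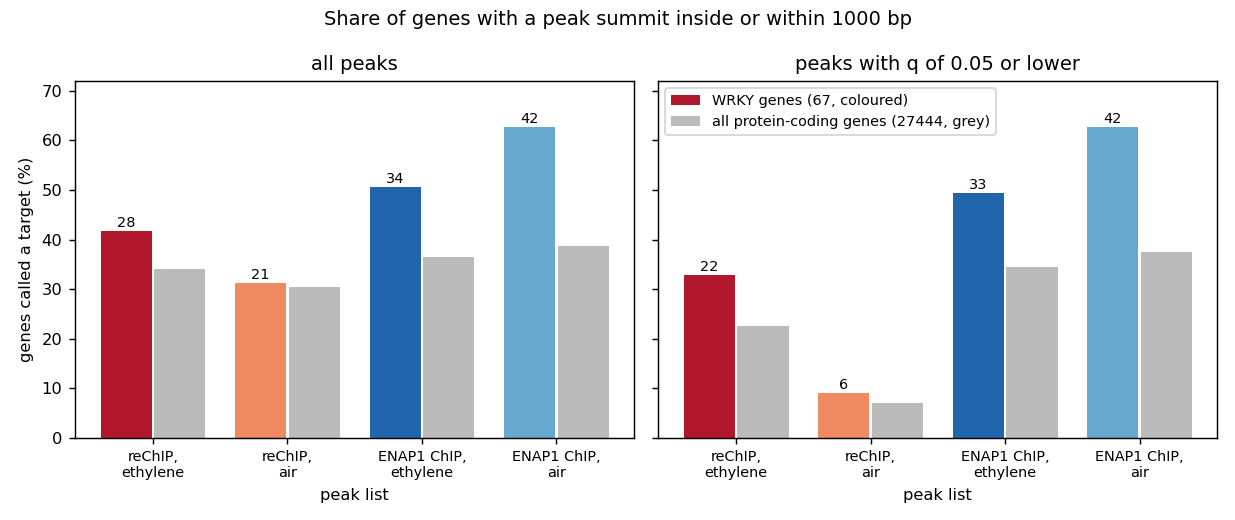
Bars give the percentage of genes called a target (y axis, %) in each of the 4 peak lists (x axis), coloured for the 67 WRKY genes with the number of targets printed above, and grey for all 27444 protein-coding genes. The left panel uses all peaks and the right panel peaks with q of 0.05 or lower; the WRKY share is 50.7% in ethylene and 62.7% in air for ENAP1 ChIP, and the air reChIP bar drops to 8.96% with the q limit.

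In fold, WRKY targets lay near all targets of each list. The median fold of the highest peak per target was 3.14 for WRKY targets in ethylene ENAP1 ChIP, against 3.07 over all targets of that list. In air ENAP1 ChIP it was 2.72 for WRKY targets and 2.92 over all targets. In reChIP the medians were 3.53 against 3.56 in ethylene and 3.70 against 3.40 in air. Pileups of ENAP1 peaks were lower at WRKY targets, with medians of 32.8 against 38.8 tags in ethylene and 44.3 against 54.5 tags in air.

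**Figure D2:**
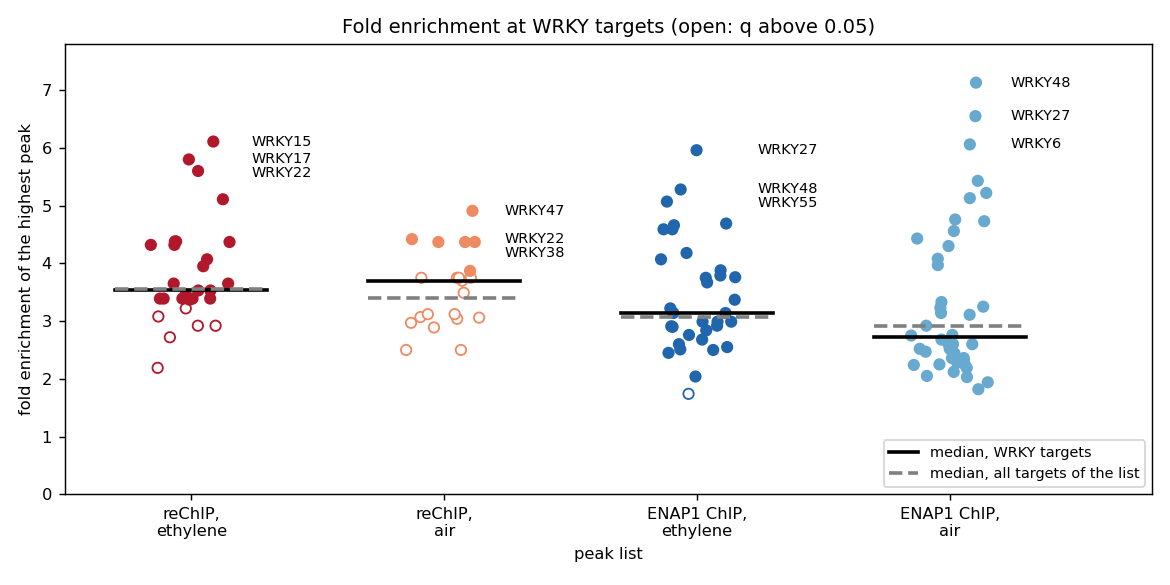
Each point is the highest peak at 1 WRKY target, by fold enrichment (y axis) and peak list (x axis), filled where q is 0.05 or lower; the black line is the median of the WRKY targets and the dashed line that of all targets of the list. WRKY48, WRKY27 and WRKY6 lead air ENAP1 ChIP, WRKY27, WRKY48 and WRKY55 lead ethylene ENAP1 ChIP, and WRKY15, WRKY17 and WRKY22 lead ethylene reChIP.

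Altogether 12 members were targets of no list: WRKY9, WRKY10, WRKY12, WRKY23, WRKY24, WRKY34, WRKY41, WRKY45, WRKY58, WRKY64, WRKY71 and WRKY72. That is 17.9% of the family, against 30.4% of all genes. Among them are WRKY10, known as MINISEED3 for its role in the endosperm, WRKY34, a pollen factor, WRKY12, which acts on stem cell walls, and WRKY23, which acts downstream of auxin in roots and embryos. These roles do not stand for all 12, and a link between role and target call was not tested. At the other end, 2 members were targets of all 4 lists, WRKY22 and WRKY47 (2.99% of the family, against 5.06% of all genes). In between, 9 members were in 1 list, 24 in 2 lists and 20 in 3 lists. The like shares of all genes were not computed for these 3 counts, so they only describe the family.

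Most ENAP1 targets of the family were shared between the treatments. Of the 34 targets in ethylene and the 42 in air, 32 were the same genes (47.8% of the family, against 31.5% of all genes). Each of these 32 had an ethylene peak and an air peak that overlapped by at least 1 bp, as did 8457 of the 8656 genes shared in all (47.8% of the family, against 30.8% of all genes). The closest ethylene and air summits lay a median of 27.5 bp apart, and at 30 of the 32 members they were at most 100 bp apart (44.8% of the family, against 29.4% of all genes). The exceptions were WRKY18 at 104 bp and WRKY21 at 263 bp. At WRKY22 the highest summits of both treatments fell on the same base.

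WRKY48, a negative regulator of basal resistance to bacteria, had the highest ENAP1 fold of the family in air. The summits of its highest peaks (5:20090324-20090811 in ethylene, 5:20090319-20090780 in air) lay 144 and 145 bp outside the gene, and the peaks ran into it. The fold was 5.28 with a pileup of 83.5 tags in ethylene, and 7.13 with a pileup of 120 tags in air. By fold they were rank 885 of 8858 in ethylene and rank 352 of 9712 in air. No reChIP peak lay at WRKY48 in either treatment.

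WRKY27, which influences symptoms of bacterial wilt, had the highest ENAP1 fold of the family in ethylene. Its highest peak was 5.96-fold with 44.8 tags in ethylene (5:21411571-21412315) and 6.55-fold with 74.2 tags in air (5:21411551-21412282). It held 3 peaks in each treatment, and a lower one lay outside the gene, with its summit 428 bp away in ethylene and 445 bp in air. The peaks with summits inside the gene covered 54.6% of it in ethylene and 76.2% in air. WRKY27 too had no reChIP peak.

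WRKY6, a senescence and phosphate starvation factor, had a 3.76-fold peak with 36.6 tags in ethylene and a 6.06-fold peak with 65.6 tags in air, 123 and 49 bp inside the same gene edge. WRKY36, which represses the light signalling gene HY5, had a 2.68-fold peak with 18 tags in ethylene (1:26279277-26279582) and a 5.43-fold peak with 56.3 tags in air (1:26279048-26279683). WRKY25, a heat stress factor of group I, had 4.66-fold with 40.9 tags in ethylene and 5.13-fold with 65.6 tags in air. WRKY55 stood higher within the ethylene list: its peak was 5.07-fold in ethylene (rank 1008 of 8858) and 3.25-fold in air (rank 3135 of 9712), but its summits lay nearer to the neighbouring gene CTEXP than to WRKY55.

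**Figure D3:**
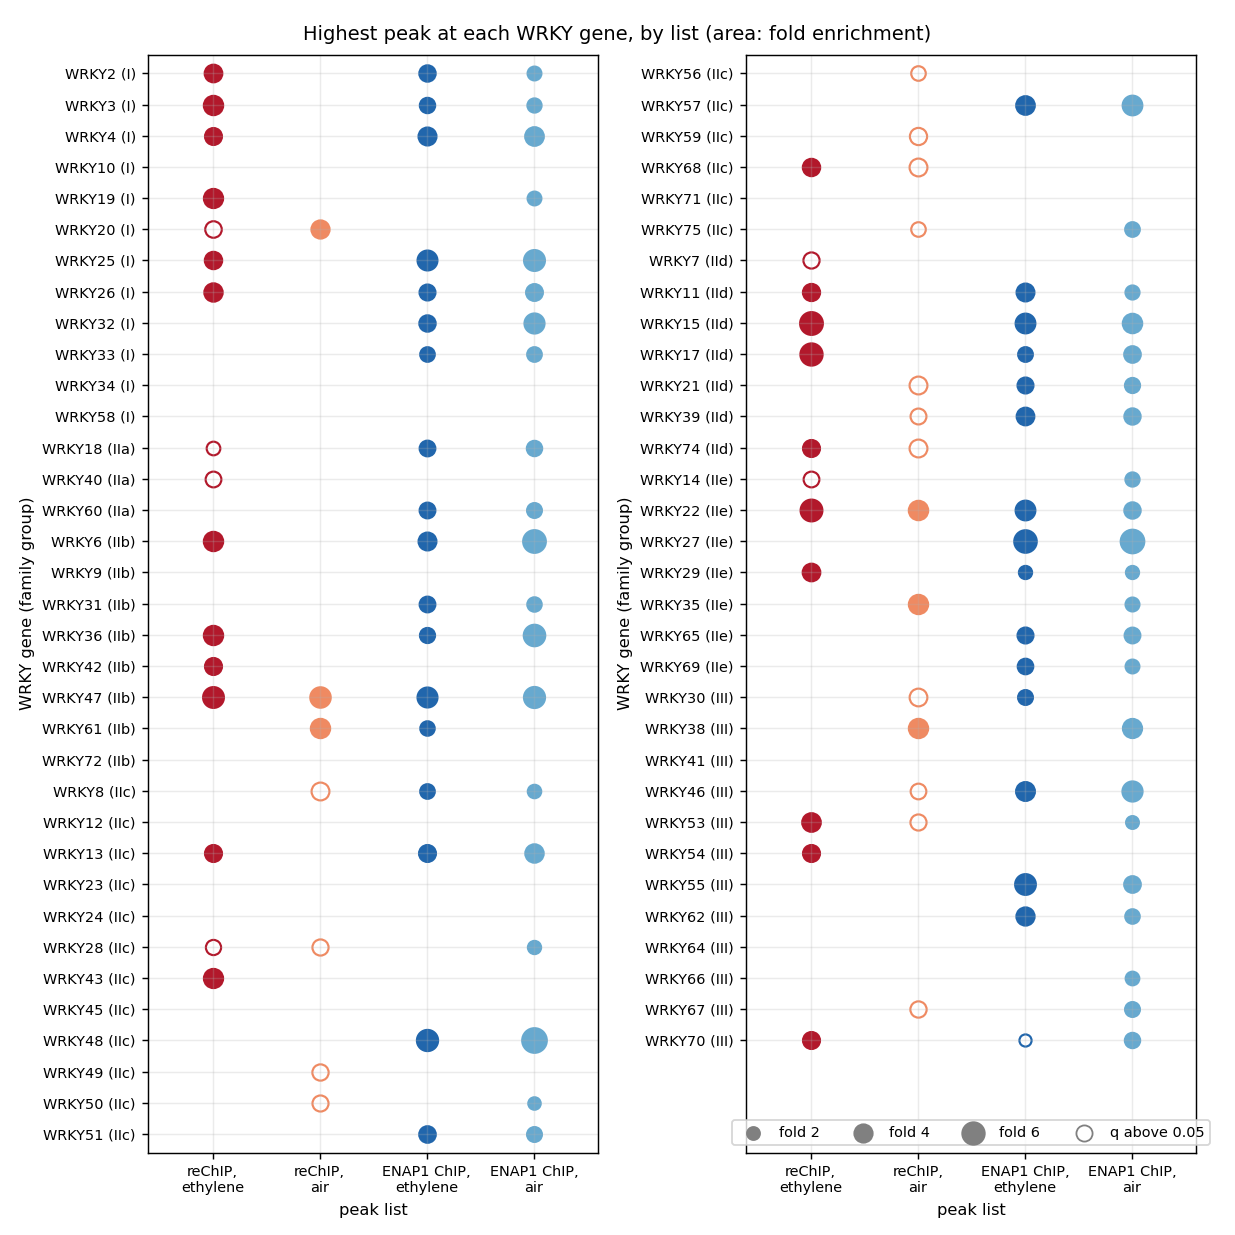
Each circle is the highest peak at a WRKY gene (rows, with the family group in brackets) in a peak list (columns), with an area in proportion to fold enrichment, filled where q is 0.05 or lower and open where q is above it. All 67 members are shown, and the rows without a circle are the 12 that no list holds.

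A further 2 members were ENAP1 targets in ethylene and not in air, and 10 in air and not in ethylene. These are 2.99% and 14.9% of the family, against 4.87% and 7.1% of all genes. None of the 12 highest peaks overlapped a peak of the other treatment. The call itself makes overlap unlikely, since the other list had no summit within 1000 bp of these genes. The like share over all genes was not computed. The ethylene pair were WRKY30, with a 2.60-fold peak of 17.5 tags, and WRKY61, with a 2.45-fold peak of 16.4 tags. Both folds were under the list median of 2.86.

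Of the 10 air members, WRKY38 had the highest fold, though not the highest pileup, which was 82.7 tags at WRKY50. That WRKY50 peak lay nearer to AT5G26180, over a control level of 3.21 times the list median. WRKY38 interacts with the histone deacetylase HDA19 and represses basal defence, and its peak was 4.30-fold with 44.3 tags (5:7497739-7498042), 955 bp outside the gene. The nearest ethylene ENAP1 peak was 26755 bp away. The other 9 had folds from 1.82 to 2.60, all under the air list median of 2.69: WRKY14 (2.36), WRKY19 (2.24), WRKY28 (2.05), WRKY35 (2.28), WRKY50 (1.82), WRKY53 (1.94), WRKY66 (2.19), WRKY67 (2.60) and WRKY75 (2.52). The air list was called from more control tags (7160364, against 4809861 in ethylene), and the part of this in the difference was not tested.

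In position, a smaller share of the WRKY peaks than of all ENAP1 peaks at targets lay just inside a gene edge. Of the highest peaks per target, 7 of 34 in ethylene and 10 of 42 in air had a summit inside the gene and within 200 bp of an edge (20.6% and 23.8%, against 34% and 33.1% over all targets). A further 12 and 13 lay deeper inside the gene (35.3% and 31%, against 18.6% and 21.3%), and 15 and 19 lay outside it. Among summits inside the gene, the median distance to the nearest edge was 353 bp in ethylene and 254 bp in air for WRKY genes, against 139 and 154 bp over all targets. The gene table gave no strand, so 5′ and 3′ edges were pooled.

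A larger share of WRKY genes than of all genes held several ENAP1 peaks. In each treatment 14 members had more than 1 peak (20.9% of the family, against 7.35% of all genes in ethylene and 8.39% in air). In the reChIP lists, 5 members had more than 1 peak in ethylene (7.46%, against 7.25% of all genes) and 7 in air (10.4%, against 6.18%). Among ENAP1 targets, WRKY27 (3 peaks in each treatment), WRKY48 (3 in ethylene, 2 in air), and WRKY6, WRKY11 and WRKY33 (2 in ethylene, 3 in air) held the most. WRKY15, a factor of oxidative and osmotic stress responses, had instead 1 broad peak of 1389 bp in ethylene (2:9924888-9926276) and of 1424 bp in air (2:9924889-9926312), which covered 93.4% and 95.8% of the gene.

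By family group, the share of ENAP1 targets was highest in groups IId and IIe in ethylene and in IIe in air, and lowest in IIc in both treatments. Group IIe, which holds the immune factors WRKY22 and WRKY29, had 5 of 7 members as targets in ethylene and 7 of 7 in air. Group IId, whose members bind calmodulin, had 5 of 7 in each treatment, the same genes in both: WRKY11, WRKY15, WRKY17, WRKY21 and WRKY39. Group I had 7 of 12 in ethylene and 8 of 12 in air, group IIb 5 and 4 of 8, group IIa 2 of 3 in each, and group III 5 and 8 of 12. Group IIc had 5 of 18 in ethylene (27.8%, under the 36.4% of all genes) and 8 of 18 in air (44.4%, above the 38.6% of all genes). The groups differ in gene length, with a median of 1735 bp in IIc and 2147 bp in IId, and the groups were not tested against each other.

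In group IId, WRKY11 and WRKY17, close relatives that restrain basal resistance, had ENAP1 summits deep inside the gene at like distances from an edge. At WRKY11 they lay 600 bp inside in ethylene (3.75-fold, 62.8 tags) and 608 bp inside in air (2.32-fold, 73.3 tags). At WRKY17 they lay 661 bp inside in ethylene (2.55-fold, 55.1 tags) and 665 bp inside in air (3.23-fold, 89.5 tags). The control level under these peaks was raised as well, at 1.72 and 2.21 times the list median at WRKY11 and 2.26 and 1.93 times at WRKY17, and its part in the peaks was not tested. This was not particular to them: in ethylene and air the level was 1.94 and 1.86 times at WRKY15 and 1.72 and 1.93 times at WRKY22. At WRKY27 it was under the median, at 0.719 and 0.749 times. The neighbours in the group, WRKY7 and WRKY74, had no ENAP1 peak.

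**Figure D4:**
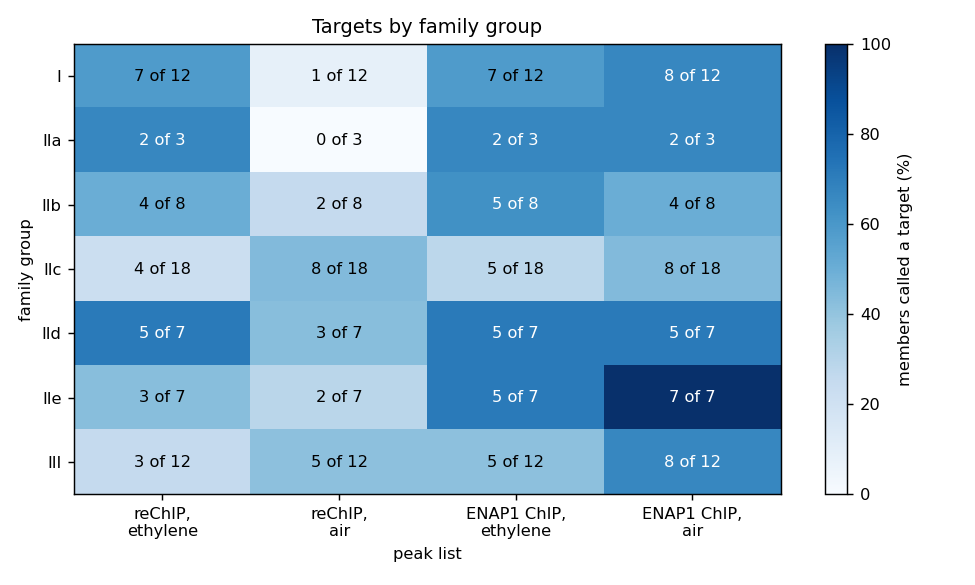
Each cell gives the number of members called a target in a peak list (columns) of all members in a family group (rows), shaded by that percentage. ENAP1 ChIP in air reaches 7 of 7 in group IIe, and air reChIP reaches 1 of 12 in group I.

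In the ethylene reChIP list, the highest WRKY peaks lay at WRKY15, WRKY17, WRKY22 and WRKY47. These were the 4 members with −log10 q of at least 3, and the share of all genes at that level was not computed. By fold their peaks ranked from 125 (WRKY15) to 488 (WRKY47) of the 9881 peaks in the list. All rest on few tags, and the exact Poisson 95% intervals below cover counting error only. The 5th place by fold was held by WRKY6 and WRKY3, both at 4.38-fold with 5 tags.

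WRKY15 had a 6.11-fold peak of 8 tags (interval 3.45 to 15.8) at 2:9926064-9926235, rank 125 of 9881 by fold. The peak lay inside the gene and within the broad ENAP1 peak, with its summit 1084 bp from the ENAP1 summit. WRKY17 had a 5.80-fold peak of 8 tags (interval 3.45 to 15.8) at 2:10438599-10438773, 813 bp inside the gene. That peak overlapped no ethylene ENAP1 peak, and its summit lay 642 bp from the closest ENAP1 summit.

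WRKY22, which acts below MAP kinases in the response to bacterial flagellin, had a 5.60-fold reChIP peak of 7 tags in ethylene (4:522765-523005; interval 2.81 to 14.4). Its summit lay 22 bp from the ethylene ENAP1 summit (4.59-fold, 77.0 tags; 4:522747-523314). In air the reChIP peak of WRKY22 was 4.42-fold with 7 tags, but it lay 643 bp outside the gene, nearer to AT4G01240, and 1021 bp from the closest air ENAP1 summit (3.14-fold, 87.0 tags). In ethylene the reChIP and ENAP1 summits thus lay close together inside the gene, and the air reChIP peak lay elsewhere. Ethylene reChIP was called over air reChIP, which disfavours peaks at the same place, and this cannot be told apart from a site that moved.

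WRKY47 had a 5.11-fold reChIP peak of 6 tags in ethylene (4:744083-744251; interval 2.20 to 13.1), 651 bp outside the gene. Its summit lay 1 bp from the ethylene ENAP1 summit (4.69-fold, 69.3 tags; 4:743947-744372). In air the highest reChIP peak was 4.91-fold with 7 tags, 1775 bp inside the gene, while the air ENAP1 peak (5.22-fold, 92.9 tags) stayed 631 bp outside it. Another air reChIP peak (2.89-fold, 5 tags, q above 0.05) lay 152 bp inside the gene. WRKY47 thus had ENAP1 at the same place in both treatments, and a reChIP peak at that place in ethylene. The limit given for WRKY22, that ethylene reChIP was called over air reChIP, holds here too.

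Over the family, 16 members were targets of both ethylene reChIP and ethylene ENAP1 ChIP (23.9%, against 16.3% of all genes). At 8 of the 16 the peaks themselves overlapped: WRKY6, WRKY15, WRKY22, WRKY25, WRKY26, WRKY29, WRKY36 and WRKY47. That is 11.9% of the family, against 8.5% of all genes. At 6 members the summits were at most 100 bp apart (8.96%, against 6.83%): WRKY6 (8 bp), WRKY22 (22 bp), WRKY26 (36 bp), WRKY29 (32 bp), WRKY36 (86 bp) and WRKY47 (1 bp). At WRKY2, WRKY3, WRKY4, WRKY11, WRKY13, WRKY17, WRKY18 and WRKY70 the closest summits lay 587 to 2565 bp apart, so that a shared target call did not mean a shared site. The 16 were also ENAP1 targets in air, and they were 50% of the 32 members that were ENAP1 targets in both treatments, against 46.3% for all such genes. For air reChIP, which shares its input with air ENAP1 ChIP, the like share was 6 of the 32 members (18.8%), against 38.1% of all such genes.

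WRKY29, the partner of WRKY22 in flagellin signalling, had a 3.65-fold reChIP peak of 4 tags in ethylene (interval 1.09 to 10.2). Its ENAP1 peaks were low, at 2.04-fold with 31.7 tags in ethylene and 2.03-fold with 53.7 tags in air. WRKY26 and WRKY25, which act in heat tolerance with WRKY33, had reChIP peaks of 3.95-fold with 5 tags and 3.53-fold with 4 tags. WRKY26 had ENAP1 peaks of 2.99-fold with 35.5 tags in ethylene and 3.33-fold with 57.1 tags in air. At WRKY6 and WRKY36 the reChIP peaks that overlapped ENAP1 met lower ENAP1 peaks of the gene (2.02- and 2.22-fold in ethylene, the second with q above 0.05) and not the highest.

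**Figure D5:**
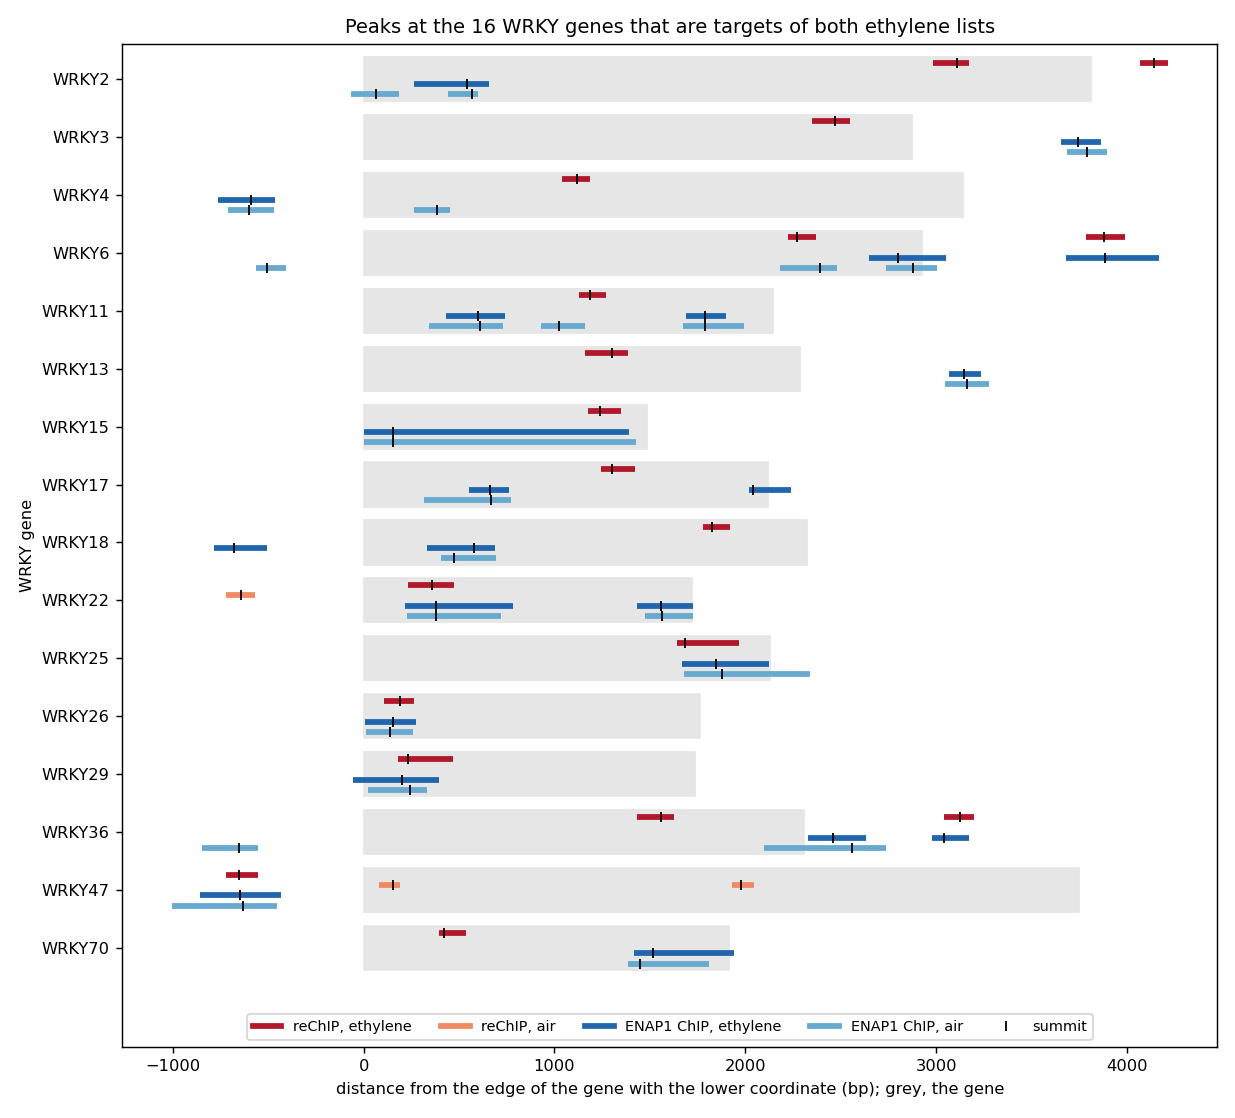
Horizontal bars are the peaks at the 16 WRKY genes that are targets of both ethylene lists, placed by distance in bp from the gene edge with the lower coordinate (x axis), with black ticks at summits and the gene in grey. Ethylene and air ENAP1 ChIP peaks lie over each other in most rows, and ethylene reChIP peaks lie over them at 8 genes, among them WRKY22 (22 bp between summits) and WRKY47 (1 bp).

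Another 18 members were ethylene ENAP1 targets without an ethylene reChIP peak (26.9%, against 20.1% of all genes), WRKY27 and WRKY48 among them. In turn, 12 members were ethylene reChIP targets without an ethylene ENAP1 peak (17.9% of the family, against 17.7% of all genes): WRKY7, WRKY14, WRKY19, WRKY20, WRKY28, WRKY40, WRKY42, WRKY43, WRKY53, WRKY54, WRKY68 and WRKY74. Their highest peaks had folds from 2.72 to 4.32 and pileups from 3 to 6 tags. WRKY53, a senescence factor, had a 4.07-fold peak of 5 tags, and WRKY54 a 3.39-fold peak of 4 tags. WRKY43 had a 4.32-fold peak of 6 tags, which lay nearer to its neighbour KPHMT1.

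Few air reChIP peaks at WRKY genes had q of 0.05 or lower, as in that list at large. The highest peaks of its 21 members had folds from 2.50 to 4.91 and pileups from 3 to 7 tags. Of these members 28.6% passed the q limit, against 23.1% of all air reChIP targets. The 6 with q of 0.05 or lower were WRKY47 (4.91-fold, 7 tags), WRKY22 (4.42-fold, 7 tags), WRKY35, WRKY38 and WRKY61 (each 4.37-fold, 6 tags) and WRKY20 (3.87-fold, 6 tags). The equal folds at WRKY35, WRKY38 and WRKY61 are those of 6 tags over the same genome-wide control level of 0.601 tags. An exact Poisson 95% interval for 6 tags runs from 2.20 to 13.1.

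In air, 13 members were targets of both reChIP and ENAP1 ChIP (19.4%, against 14.3% of all genes), with lists that share their input. That order of the shares turned with a window of 500 bp, which left 4 members (5.97%, against 10.8% of all genes), and with summits inside the gene, which left 3 (4.48%, against 6.3%). Peaks of the lists overlapped at 2 of them (2.99%, against 5.12% of all genes), WRKY38 and WRKY46. At WRKY38 the reChIP summit lay 21 bp from the air ENAP1 summit (4.37-fold and 4.30-fold), and WRKY38 had neither peak in ethylene. Ethylene reChIP, called over air reChIP, can miss such a site. At WRKY46, a factor of salicylic acid and drought responses, the reChIP peak (2.89-fold, 5 tags, q above 0.05) lay 109 bp from the air ENAP1 summit (4.76-fold, 65.6 tags). In ethylene WRKY46 had a 4.18-fold ENAP1 peak with 49.1 tags and no reChIP peak, and these peaks lay nearer to SDH8. At the other 11 the closest summits lay 157 to 4308 bp apart.

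Of the 28 ethylene and the 21 air reChIP members, 7 were in both lists (10.4% of the family, against 9.97% of all genes). These were WRKY20, WRKY22, WRKY28, WRKY47, WRKY53, WRKY68 and WRKY74, and their ethylene and air reChIP summits lay 401 to 1185 bp apart at the closest. Ethylene and air reChIP peaks overlapped at 0 members, where they did so at 0.463% of all genes. Their summits were at most 100 bp apart at 0 members, against 0.372% of all genes. Of the 7, 2 had q of 0.05 or lower in both lists, WRKY22 and WRKY47 (2.99%, against 1.57% of all genes). Since the ethylene list was called against the air reChIP library, a site with signal in both treatments can be missing from it, and this cannot be told apart from sites that moved. By family group, set against 34% of all genes, ethylene reChIP held 7 of 12 members of group I, 5 of 7 of IId, 4 of 8 of IIb, 2 of 3 of IIa, 3 of 7 of IIe, 3 of 12 of III and 4 of 18 of IIc. Air reChIP held 1, 3, 2, 0, 2, 5 and 8 of the same groups, where 30.5% of all genes were held, and with q of 0.05 or lower 1, 0, 2, 0, 2, 1 and 0, where 7.07% of all genes were.

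WRKY33, WRKY70 and WRKY75 are known from defence and senescence. WRKY33, an activator of camalexin synthesis, had ENAP1 peaks of 2.50-fold with 41.5 tags in ethylene and 2.52-fold with 44.3 tags in air, 920 and 885 bp outside the gene and nearer to AT2G38480, and no reChIP peak. Lower ENAP1 peaks lay closer to WRKY33 itself, at 2.41-fold in ethylene 147 bp outside the gene, and at 1.77-fold in air inside it, the air peak with q above 0.05. WRKY70, which stands between salicylic acid and jasmonate signalling, had ENAP1 peaks of 1.74-fold in ethylene (q above 0.05) and 2.75-fold in air, and a 3.39-fold reChIP peak of 4 tags in ethylene 1094 bp away. WRKY75, a senescence and phosphate factor, had a 2.52-fold ENAP1 peak in air and a 2.50-fold reChIP peak of 3 tags in air.

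The group IIa genes WRKY18, WRKY40 and WRKY60 act together in abscisic acid and defence responses. WRKY18 had ENAP1 peaks of 2.90-fold with 25.1 tags in ethylene and 2.76-fold with 28.1 tags in air. WRKY60 had 2.92-fold with 22.4 tags in ethylene and 2.60-fold with 26.4 tags in air. WRKY40 had no ENAP1 peak, and its reChIP peak in ethylene held 3 tags, with q above 0.05. The highest ENAP1 peaks of WRKY18 and WRKY60 lay within 0.1 of the medians over all peaks, 2.86 in ethylene and 2.69 in air. They lay under the medians of the highest peak per target, 3.07 in ethylene and 2.92 in air. Further ENAP1 peaks were lower, at 2.45-fold in ethylene for WRKY18, and at 2.30-fold in ethylene and 2.28-fold in air for WRKY60.

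Several further members were ENAP1 targets in both treatments. WRKY57, a drought tolerance factor, had a 4.07-fold peak in ethylene and a 4.56-fold peak in air, 1174 and 1141 bp inside the gene. WRKY32 had 3.14-fold and 4.73-fold, WRKY4 3.79-fold and 4.08-fold, WRKY13 3.37-fold and 3.97-fold, and WRKY62, which acts with WRKY38, 3.88-fold and 2.47-fold, in ethylene and in air. At WRKY2, WRKY3, WRKY8, WRKY21, WRKY31, WRKY39, WRKY51, WRKY65 and WRKY69 both folds lay between 2.12 and 3.67. Unlike these, WRKY49, WRKY56 and WRKY59 had an air reChIP peak alone, of 2.50- to 3.49-fold with 3 to 5 tags and q above 0.05.

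Of 23 immune signalling genes around the WRKY factors (MAP kinases, receptors, VQ partners, and salicylic acid and camalexin genes), 10 were ENAP1 targets in ethylene and 13 in air (43.5% and 56.5%, against 36.4% and 38.6% of all genes). BIK1, a receptor-like kinase of flagellin signalling, had 4.57-fold in ethylene and 4.18-fold in air. MEKK1 had 2.72-fold and 4.60-fold, MKK5 2.66-fold and 4.57-fold, and MPK3 3.33-fold and 3.71-fold. FLS2, the flagellin receptor, had a 2.22-fold peak in air alone, and MKK4 had no peak in any list. The reChIP lists held 6 of the 23 in ethylene and 7 in air (26.1% and 30.4%, against 34% and 30.5%). With q of 0.05 or lower they held 5 of the 23 in ethylene and 2 in air, where 22.5% and 7.07% of all genes were held. The highest was PAD4, a lipase-like regulator of salicylic acid signalling, with a 6.57-fold peak of 8 tags in ethylene. PR1, PAD3 and CYP71A13, genes that WRKY factors are known to control, had no peak in any list. The same held for MKK1 and MKK2, and 30.4% of all genes were in no list.

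The window of 1000 bp left some members close to its limit. In ethylene ENAP1 ChIP the farthest counted member was WRKY3, at 871 bp, and the nearest uncounted one WRKY59, at 1677 bp. In air ENAP1 ChIP these were WRKY38 at 955 bp and WRKY72 at 1169 bp. In ethylene reChIP they were WRKY40 at 891 bp and WRKY32 at 1008 bp, and in air reChIP WRKY38 at 976 bp and WRKY71 at 1050 bp. Counting summits inside the gene alone left 21 ENAP1 targets in ethylene and 27 in air (31.3% and 40.3% of the family, against 21.4% and 23.6% of all genes).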

How the data were processed

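Seedlings were profiled by ENAP1 ChIP and ENAP1-EIN2 reChIP, with 1 library per group. The submitters' processing notes name BWA and the TAIR10 build. Per the file headers, the authors called peaks with MACS2 2.1.0.20150603 for each library against 1 control library, with a p cutoff of 0.01 and at most 1 tag per position, and pooled none. Each deposited list gives the pileup as a signal in tags, with the larger library scaled to the smaller, the −log10 of the p-value and q-value, and fold enrichment as a ratio over the control. The file headers say that no q was computed, but the deposited −log10 q column is filled and was taken as it stands. Duplicates were 83% and 84% of tags in the ethylene and air reChIP libraries, and 34% and 37% in the ENAP1 ChIP libraries.

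Gene positions, without strand, were taken from RefSeq (assembly TAIR10.1), and none of its coordinates are printed. Of air ENAP1 ChIP summits, 40.5% lay within 200 bp inside a gene edge, and at most 10.6% when genes were shifted by 1000 to 5000 bp. Peaks were assigned with pandas 2.3.3, and the assignment was tested on simulated summits. The control level was computed as (pileup + 1) / fold − 1. Members named with values were the 5 highest of each list, targets of all 4 lists, reChIP peaks at −log10 q of 3 or more, ENAP1 targets of 1 treatment, and WRKY6, WRKY18, WRKY22, WRKY29, WRKY33, WRKY40, WRKY53, WRKY60, WRKY70 and WRKY75; others were named after their values were seen. Members, family groups (from general knowledge) and gene lists were chosen with earlier results of these data known. Promoter motifs and protein sequences were not analysed here.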

Additional observations from a re-analysis of the deposited data

How the results depend on the processing

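With 1 library per group no replicate could be left out, and no paired analysis was possible because each group holds 1 sample and no result comes from a test. Counts within 1.5 times the reported one are not listed. At −log10 q of 5 or more, WRKY targets numbered 20 in ethylene ENAP1 ChIP (29.9%, against 22.4% of all genes) and 24 in air ENAP1 ChIP (35.8% against 26.9%). The ENAP1 ChIP lists shared 18 (26.9% against 20.3%). Either reChIP list held 0, against 0.707% of all genes in ethylene and 0.222% in air. Each pair with a reChIP list shared 0, against at most 0.576% of all genes. With summits inside the gene alone, WRKY targets numbered 21 in ethylene ENAP1 ChIP (31.3%, against 21.4% of all genes) and 27 in air ENAP1 ChIP (40.3% against 23.6%). Air reChIP held 13 (19.4% against 18.7%). The ENAP1 ChIP lists then shared 19 (28.4% against 18.1%), the reChIP lists 3 (4.48% against 4.33%) and the air lists 3 (4.48% against 6.3%). With q of 0.05 or lower, air reChIP held 6 (8.96%, against 7.07% of all genes). The reChIP lists shared 2 (2.99% against 1.57%) and the air lists 4 (5.97% against 3.65%). Windows of 500 bp left 4 shared by the reChIP lists (5.97%, against 6.9% of all genes) and 4 by the air lists (5.97% against 10.8%). They put the family's share in air reChIP under that of all genes (20.9% against 24.8%). The nearest gene alone left 8 shared by the air lists (11.9% against 8.94%). Where peaks had to overlap, 8 members were shared by the ethylene lists (11.9%, against 8.5% of all genes), 2 by the air lists (2.99% against 5.12%) and 0 by the reChIP lists (against 0.463%). With summits at most 100 bp apart these were 6 (8.96% against 6.83%), 1 (1.49% against 3.65%) and 0 (against 0.372%). The same number of peaks per list, any base of the peak in the window, and adding the 5 genes whose WRKY number is a synonym (chosen after the data were seen) kept all 8 counts within 1.5 times. The share of ENAP1 targets among WRKY genes stood above that of all genes under each of these settings. The highest peaks of members in the reChIP lists rest on 2 to 8 tags. The parts of depth, duplicates and choice of control in the reChIP counts cannot be told apart. Why the counts change was not tested beyond what each setting removes.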

Other observations

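The table names 5 further genes that carry a WRKY number as a synonym. TTG2 (WRKY44), which acts in trichome and seed coat development, had reChIP peaks of 4.20-fold in ethylene and 2.42-fold in air and no ENAP1 ChIP peak. RRS1 (WRKY52), an immune receptor fused to a WRKY domain, had ENAP1 ChIP peaks of 2.12-fold in ethylene and 3.45-fold in air and no reChIP peak. ABO3 (WRKY63), a factor of abscisic acid responses, had a reChIP peak of 3.68-fold and an ENAP1 ChIP peak of 2.28-fold, both in air, and none in ethylene. ZAP1 (WRKY1) had a 2.92-fold reChIP peak in ethylene alone. TTR1 (WRKY16) had no peak in any list.

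At some members the highest peak lay nearer to another protein-coding gene: 2 of 28 in ethylene reChIP, 3 of 21 in air reChIP, 5 of 34 in ethylene ENAP1 ChIP and 5 of 42 in air ENAP1 ChIP. WRKY33, WRKY39, WRKY46 and WRKY55 were of this kind in both ENAP1 ChIP lists.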
